A study of Mus musculus with 2 samples.

Results

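Basement membrane genes were followed through single cells of E14 mouse embryos. The genes were 10 of the 32285 in the counts table, found by their symbols: the collagen IV chains Col4a1 and Col4a2, the laminin chains Lama2, Lama4, Lama5, Lamb1 and Lamc1, the nidogens Nid1 and Nid2, and the perlecan gene Hspg2. Cells had been released from trunks and limbs with collagenase type XI and dispase II, sorted for the red reporter tdTomato, and made into 1 10x Genomics 3′ library per genotype. One sample is labelled SRSF2f/f/Myf5-Cre/tdT, with both copies of the splicing factor gene Srsf2 flanked by loxP sites, and the other SRSF2f/w/Myf5-Cre/tdT, with 1 such copy. Animals of both groups carried the Cre recombinase, expressed from the Myf5 promoter, and the reporter that Cre switches on. The sort was thus meant to keep cells whose lineage had at some point expressed Cre, in muscle and outside it. Whether each kept cell carried the reporter was not tested. Each label speaks of 1 sample, and the number of embryos pooled is not given. The libraries had no replicates, so no test was made between them, the cells of a library are not replicates, and every interval below covers counting error only.

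The label of each library went against other evidence. The library labelled SRSF2f/f has a quality summary named WT and stands under the Het/tdT heading in the study's quality plots. It had 1974 muscle-like cells of 12523 kept cells (15.8%, 15.1 to 16.4), and 219 CPM of Srsf2 (217 to 221). The library labelled SRSF2f/w has a quality summary named KO, 93 muscle-like cells of 10345 (0.899%, 0.726 to 1.10) and 153 CPM of Srsf2 (151 to 155), and Srsf2 was lower in it in each of the gated cell types. The libraries are therefore called the muscle-rich library labelled SRSF2f/f and the muscle-poor library labelled SRSF2f/w, and no direction below is tied to a genotype. CPM is the number of unique molecular identifiers (UMIs) of a gene per 1000000 UMIs of the same cells. Kept cells held 151555303 UMIs in the muscle-rich and 122938843 in the muscle-poor library, with medians of 10751 and 9480 per cell, and 50 cell barcodes occurred in both.

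Basement membranes are thin sheets of extracellular matrix that underlie epithelia and endothelia and wrap muscle fibres, peripheral nerve and fat. Laminins, each a trimer of an alpha, a beta and a gamma chain, polymerise at the cell surface and bind integrins and dystroglycan. Collagen IV, mostly a trimer of the chains encoded by Col4a1 and Col4a2, forms the covalent network that gives the sheet its strength. Nidogens and the heparan sulfate proteoglycan perlecan link the networks. Which alpha chain a tissue makes largely sets the kind of laminin it deposits. In muscle the chain encoded by Lama2 anchors the fibre, and its loss causes congenital muscular dystrophy.

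Cells were assigned to 11 types by fixed limits on UMIs of marker genes. Checked against genes the limits did not use, each type had at least 4 of 5 check genes at least 1.5-fold higher than in the other cells, and each is called by its name with the ending "-like". The muscle-rich library held 2372 fibroblast-like, 2147 chondrocyte-like, 509 neuron-like, 362 endothelial-like, 151 Schwann-like, 145 osteoblast-like, 130 pericyte-like, 128 immune-like, 90 epidermal-like and 62 erythroid-like cells. The muscle-poor library held 1417, 2102, 895, 905, 110, 75, 75, 595, 106 and 67 in the same order. Cells that passed several limits (380 and 448) or none (4073 and 3457) were in no type. Red cells make no basement membrane, so the erythroid-like level was taken as the level that free RNA gives. It ranged from 0 UMIs (Lama5) to 17.2 CPM (Col4a2, 9.15 to 29.4) in the muscle-rich library, and a level whose interval reached this background is not read as expression.

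Col4a1 and Col4a2, whose products are made in the same trimer, lie head to head on chromosome 8. In GRCm38, Col4a1 (ENSMUSG00000031502) spans 11198423 to 11312826 on the minus strand and Col4a2 (ENSMUSG00000031503) spans 11312805 to 11449287 on the plus strand. The RefSeq windows from 250 bases before to 50 after each gene's start (GRCm38.p6) therefore share 78 bases, shown because both genes' levels moved together in what follows. Capitals mark the shared stretch, read on opposite strands, and the windows are chr8:11312777-11313076 (minus) and chr8:11312555-11312854 (plus).
Col4a1: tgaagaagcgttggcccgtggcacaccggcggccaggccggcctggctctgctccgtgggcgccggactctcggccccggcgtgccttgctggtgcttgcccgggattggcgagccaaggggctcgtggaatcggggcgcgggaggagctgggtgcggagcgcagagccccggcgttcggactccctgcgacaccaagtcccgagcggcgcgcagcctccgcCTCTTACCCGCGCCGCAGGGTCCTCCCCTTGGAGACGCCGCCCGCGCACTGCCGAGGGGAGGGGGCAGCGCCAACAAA
Col4a2: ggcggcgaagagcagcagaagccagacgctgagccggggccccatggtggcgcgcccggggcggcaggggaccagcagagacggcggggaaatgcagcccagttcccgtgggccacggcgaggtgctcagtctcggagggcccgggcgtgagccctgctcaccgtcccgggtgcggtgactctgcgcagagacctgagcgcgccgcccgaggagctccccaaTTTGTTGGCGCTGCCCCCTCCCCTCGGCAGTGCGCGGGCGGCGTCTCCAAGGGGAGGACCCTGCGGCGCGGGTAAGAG
The letters CCAAT occur in both windows, forward in Col4a2 at position -32 from its start and on the opposite strand in Col4a1. These are different sites, and neither lies wholly within the shared stretch. On either strand, CCAAT is in 4 of the 7 windows at hand for these genes and in 37.41% of all 32851 windows, and the GC box letters GGGCGG are in 7 of 7 and in 35.66%. The GGGCGG of the Col4a1 window, on its opposite strand, lies in the shared stretch. It is the same site as the Col4a2 match at position 7, so this site is counted for both genes. A match of letters is a description of the window and not a binding site.

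Collagen IV transcripts were highest in the cells of vessel walls. Col4a1 was at 1027 CPM in the pericyte-like cells of the muscle-rich library (981 to 1074) and at 1156 in the muscle-poor library (1086 to 1229), and in the endothelial-like cells at 808 (785 to 832) and 734 (721 to 747). Schwann-like cells, the glia of peripheral nerve, followed with 526 and 586 CPM. Muscle-like cells had 328 CPM in the muscle-rich library (322 to 335), above the 220 of the fibroblast-like cells, whereas in the muscle-poor library they had 215 (192 to 239) beside 220, intervals that overlap. From epidermal-like cells (96.7 and 79.2 CPM) the level went down to chondrocyte-like cells (53.8 and 51.3), and below these the neuron-like, osteoblast-like, immune-like and erythroid-like cells of the muscle-rich library overlapped from one to the next. Col4a2 was also led by these types. Endothelial-like (454 CPM, 436 to 472) and pericyte-like cells (438, 409 to 469) overlapped in the muscle-rich library, and pericyte-like cells led in the muscle-poor one (495 against 392). The endothelial-like level pools blood and lymphatic cells, which are set apart further on. The pair kept a similar ratio in several types: 1.90 and 1.87 Col4a1 UMIs per Col4a2 UMI in muscle-like cells of the muscle-rich and muscle-poor library, 1.78 and 1.87 in endothelial-like cells, and 1.87 and 1.97 in fibroblast-like cells. Pericyte-like cells stood above these at 2.34 and 2.33, next to epidermal-like cells (2.27 and 2.04), and chondrocyte-like cells below at 1.10 (1.03 to 1.18) and 1.12 (1.04 to 1.21). A ratio of UMIs of different genes is not a ratio of molecules, and only its difference between cell types is read here.

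**Figure D1:**
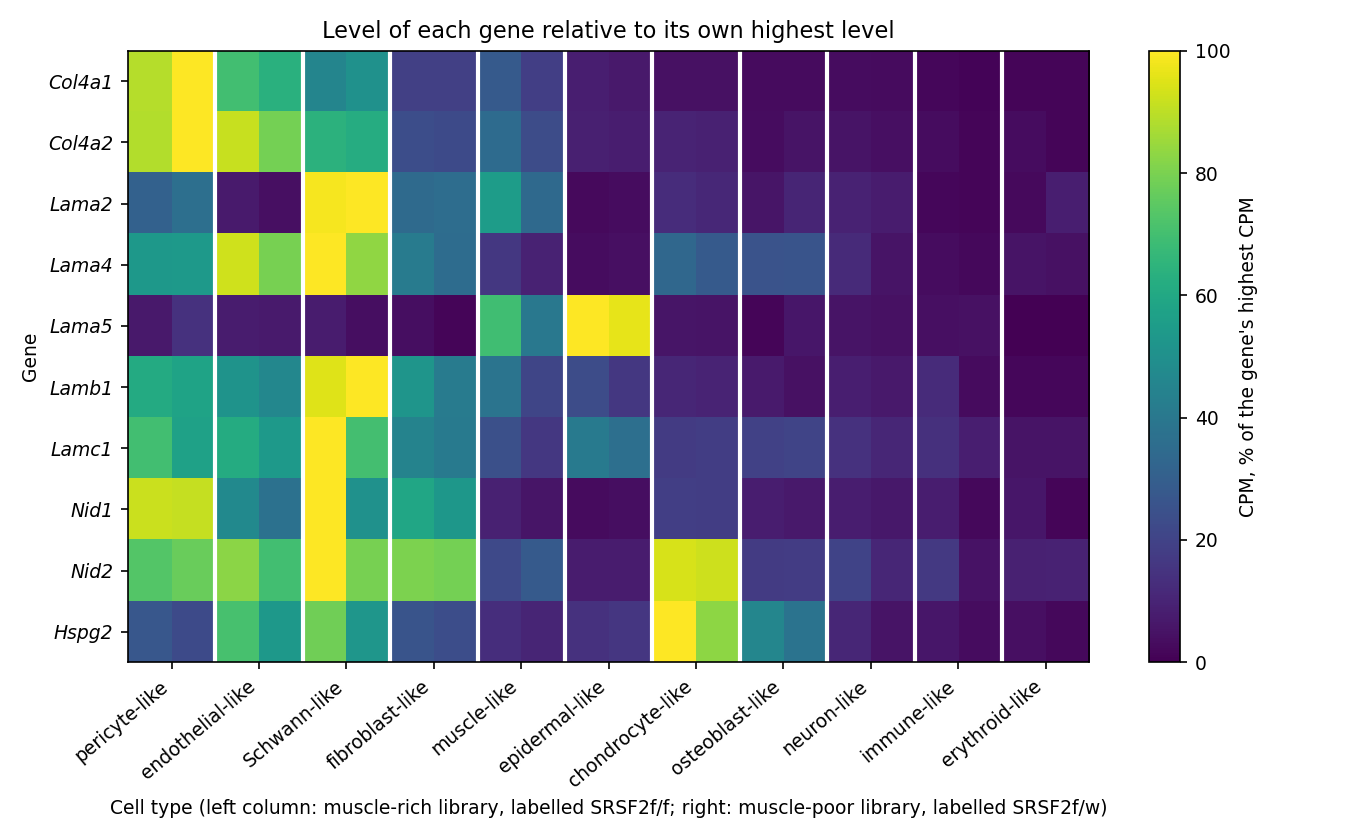
Level of the 10 basement membrane genes (rows) in 11 cell types, as a percentage of each gene's own highest CPM (colour), with the muscle-rich library in the left and the muscle-poor library in the right column of each type. Both collagen IV genes peak in pericyte-like and endothelial-like cells, Lama5 in epidermal-like cells followed by muscle-like cells, and Hspg2 in chondrocyte-like cells (155 and 129 CPM).

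Several of these genes were higher in endothelial-like than in fibroblast-like cells. Col4a1, Col4a2, Lama4 and Hspg2 were at least 2-fold higher in endothelial-like cells, 4 of the 9 genes with at least 100 UMIs, in both libraries. Over all genes with as many UMIs, 8.44% were that much higher in the muscle-rich and 10.2% in the muscle-poor library. The folds were 3.68 and 3.33 for Col4a1, 3.85 and 3.50 for Col4a2, 2.23 and 2.24 for Lama4, and 2.74 and 2.27 for Hspg2. Lamb1 (108 against 109 CPM in the muscle-rich library, 97.1 against 87.0 in the muscle-poor), Nid2 (71.1 against 69.0, 60.1 against 68.1) and Lamc1 (94.8 against 69.1, 83.3 against 63.5) stood closer. Nid1 was lower in endothelial-like cells in both libraries, at 125 against 156 and 98.4 against 139 CPM, log2 ratios of -0.32 (-0.44 to -0.20) and -0.50 (-0.59 to -0.40). Lama2 was lower as well, at 4.09 and 2.19 CPM in endothelial-like and 19.3 and 20.0 in fibroblast-like cells, log2 ratios of -2.24 (-2.91 to -1.64) and -3.19 (-3.73 to -2.69), and its endothelial-like levels reached those of erythroid-like cells. Col4a1, Col4a2, Lama4 and Hspg2 also passed the 2-fold limit in Schwann-like over fibroblast-like cells in both libraries. There 6 of 9 genes passed in each library, against 750 of 10663 and 627 of 9478 of all genes. The set was thus not particular to endothelial-like cells.

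Within the endothelial-like cells, blood and lymphatic cells differed in collagen IV and perlecan, while Lama4 lay close together. Lymphatic cells were those with at least 3 UMIs of Prox1 and Lyve1 together (169 and 507 cells) and blood cells those with at most 1 (179 and 354). Lymphatic capillaries are known for a sparse, broken basement membrane. Col4a1 was at 1172 CPM in blood and 400 in lymphatic cells of the muscle-rich library, and at 1202 and 375 in the muscle-poor library. Col4a2 was at 668 against 215 and 641 against 198, and Hspg2 at 174 against 45.0 and 132 against 47.2. These 3 of 8 genes were at least 2-fold higher in blood cells in both libraries, by 2.93 and 3.20 for Col4a1, 3.11 and 3.24 for Col4a2, and 3.86 and 2.80 for Hspg2, against 5.22% and 5.44% of all genes. Blood cells stood above pericyte-like cells in Col4a2 (438 and 495 CPM) and, in the muscle-rich library, in Col4a1 (1027 CPM). In the muscle-poor library blood cells lay close to pericyte-like cells in Col4a1 (1156 CPM). Lymphatic cells stood below Schwann-like cells in Col4a1 (526 and 586). The order of cell types given above thus holds for blood and lymphatic cells pooled. Lama4, the endothelial laminin alpha chain, was at 167 CPM in blood and 170 in lymphatic cells, and at 146 and 142 in the muscle-poor library. Its log2 ratios were -0.03 (-0.22 to 0.16) and 0.04 (-0.08 to 0.17). Nid2 (1.86-fold and 1.74-fold) and Nid1 (1.65-fold and 1.46-fold) lay between, and Lamb1 was 1.29-fold and 1.11-fold higher in blood cells, with an interval that reaches 0 on the log2 scale in the muscle-poor library.

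**Figure D2:**
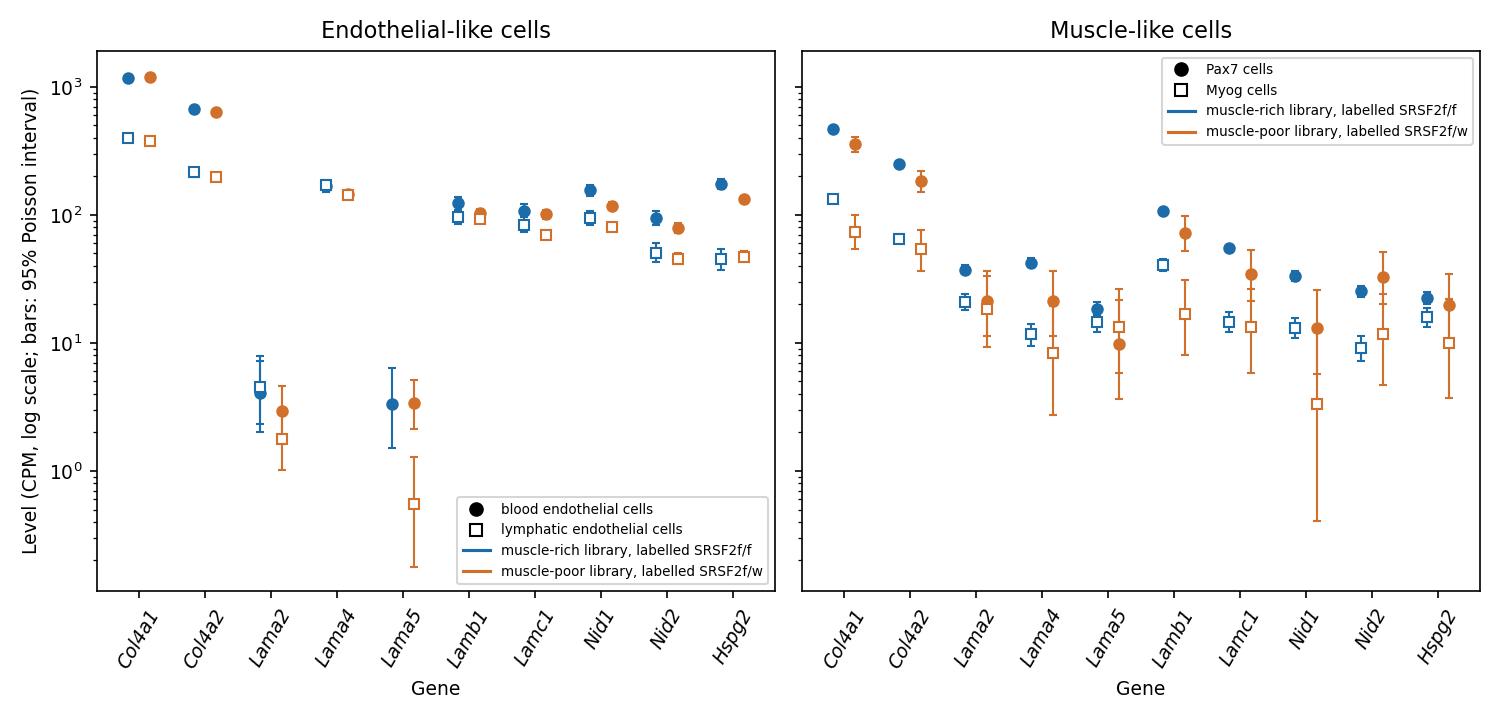
CPM (log axis) of each gene in blood (filled) and lymphatic (open) endothelial-like cells and in Pax7 (filled) and Myog (open) muscle-like cells, in the muscle-rich (blue) and muscle-poor (orange) library, with exact 95% Poisson intervals. Values of 0 are not drawn (Lama5 in lymphatic cells of the muscle-rich library); Lama4 overlaps between blood and lymphatic cells, and Col4a1 and Col4a2 stand apart in both panels.

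The laminin alpha chains divided the cell types. Lama2 was highest in Schwann-like cells, at 55.0 CPM (44.3 to 67.4) and 55.8 (42.6 to 71.6), where its protein lines the nerve fibre. Muscle-like cells came next in the muscle-rich library with 30.9 CPM (28.9 to 32.9), above fibroblast-like cells with 19.3 (17.7 to 21.1). In the muscle-poor library muscle-like cells had 19.1 CPM (12.9 to 27.3), which could not be told from pericyte-like (20.3) and fibroblast-like cells (20.0). The pericyte-like level there reached the erythroid-like one. Lama4, the chain of vessels and nerve, was at 179 and 149 CPM in Schwann-like and at 166 and 142 in endothelial-like cells, neighbours whose intervals overlapped. It stepped down through pericyte-like (95.4 and 95.9), fibroblast-like (74.3 and 63.4) and chondrocyte-like cells (59.7 and 50.3) to muscle-like cells (28.9 and 17.2). Lama5, a chain of many epithelia, stood above erythroid-like background in epidermal-like and muscle-like cells. Epidermal-like cells had 23.8 CPM (16.4 to 33.4) and 23.0 (17.0 to 30.4), and muscle-like cells 16.5 (15.1 to 18.0) and 9.55 (5.35 to 15.8). The other types had at most 3.38 CPM, and erythroid-like cells had 0 UMIs, which allows up to 4.87 and 4.38 CPM. A Lama5 UMI was seen in 22.8% of the muscle-like cells of the muscle-rich and 15.1% of those of the muscle-poor library.

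As shares of the UMIs of Lama2, Lama4 and Lama5 together, 3 patterns stood out. Muscle-like cells of the muscle-rich library held all 3 chains, with 40.5% Lama2 (38.5 to 42.5), 37.9% Lama4 and 21.6% Lama5. In the muscle-poor library 72 UMIs gave 41.7% (30.2 to 53.9), 37.5% and 20.8%, but the Lama4 level there (17.2 CPM, 11.3 to 25.0) reached the erythroid-like one (8.31, 3.34 to 17.1), so its share is not read as expression. Of these 3 chains, epidermal-like cells held mostly Lama5, at 76.7% and 72.1%. Lama3 is outside these shares, and it had more UMIs there than Lama5 (60 and 140 against 33 and 49). Endothelial-like cells were nearly all Lama4, at 96.6% (95.2 to 97.6) and 97.3% (96.6 to 97.9). Between these ends, Lama2 made up 23.4% and 27.1% in Schwann-like, 20.4% and 23.9% in fibroblast-like, and 15.1% and 17.0% in pericyte-like cells. The pericyte-like Lama2 level of the muscle-poor library reached the erythroid-like one, so the 17.0% is not read as expression. The levels of the 2 libraries differed in muscle-like cells, as shown further on, but these shares overlapped.

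**Figure D3:**
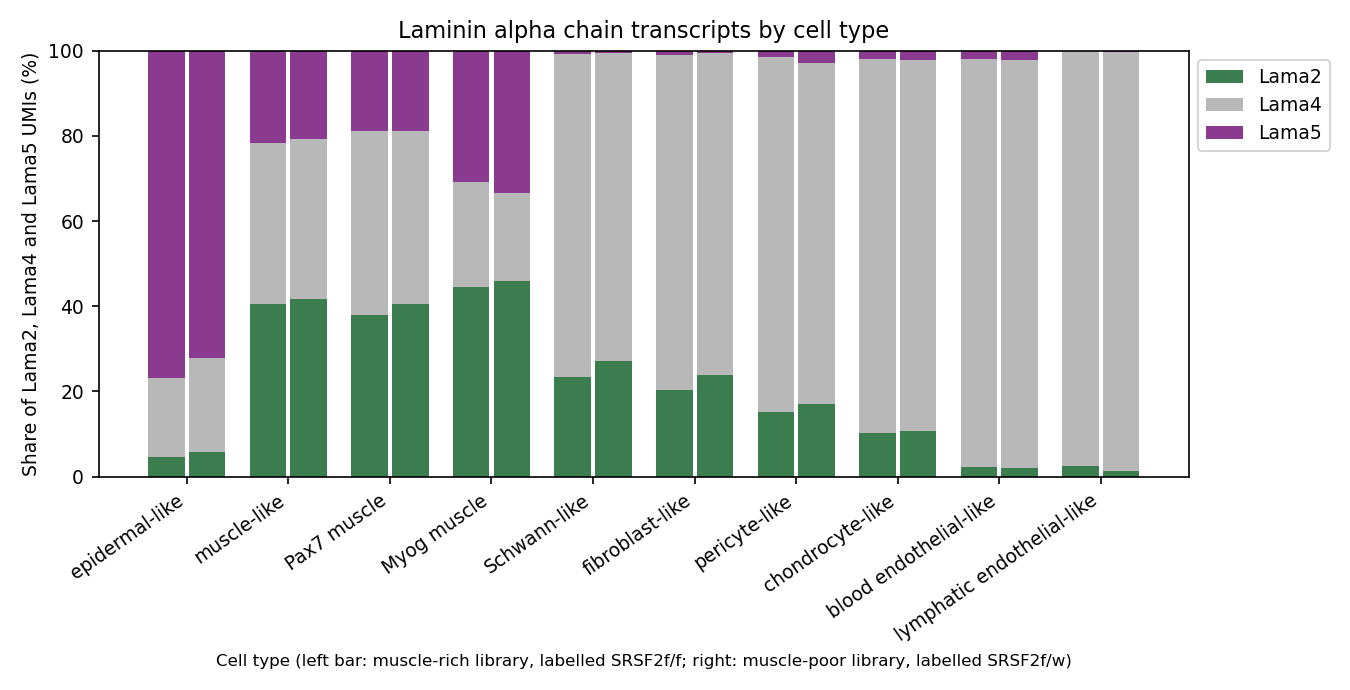
Share (%) of the UMIs of Lama2, Lama4 and Lama5 taken by each gene, in 10 groups of cells, with the muscle-rich library as the left and the muscle-poor library as the right bar. Epidermal-like bars are mostly Lama5 (76.7% and 72.1%), muscle bars hold all 3 genes, and endothelial bars are nearly all Lama4. Lama3, which had more UMIs than Lama5 in epidermal-like cells, is not part of the shares.

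The beta and gamma chains that pair with these alpha chains were less selective. Lamb1 was highest in Schwann-like cells (199 and 209 CPM), and lower in pericyte-like (128 and 122), fibroblast-like (109 and 87.0), endothelial-like (108 and 97.1) and muscle-like cells (80.9 and 43.9). Lamc1, whose chain is part of most laminins, was also highest in Schwann-like cells (154 and 108 CPM, in the muscle-poor library with an interval that overlapped the next), and pericyte-like (107 and 88.0), endothelial-like (94.8 and 83.3) and fibroblast-like cells (69.1 and 63.5) followed. Epidermal-like cells had more Lamc1 than muscle-like cells, 62.8 against 37.4 CPM and 56.3 against 24.8, while Lamb1 was at 48.3 against 80.9 and at 34.2 against 43.9, the last with overlapping intervals. Per Lamc1 UMI, muscle-like cells thus had 2.16 and 1.77 Lamb1 UMIs, fibroblast-like cells 1.58 and 1.37, endothelial-like cells 1.14 and 1.17, chondrocyte-like cells 0.85 and 0.74, and epidermal-like cells 0.77 and 0.61. Other laminin genes were read from a list, without setting their levels against the erythroid-like ones. Lama3, an epithelial alpha chain, was highest in epidermal-like cells (43.3 and 65.6 CPM), as was Lamb3 (14.4 and 10.8 CPM), and Lama1 and Lamc3 were highest in pericyte-like cells (6.47 and 23.7 CPM, 18.3 and 29.3 CPM).

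Nid1 and Nid2, which bind both laminin and collagen IV, were unequally spread. Nid1 was at 263 CPM in Schwann-like and 241 in pericyte-like cells of the muscle-rich library, whose intervals overlapped. In the muscle-poor library pericyte-like cells led with 240 CPM and Schwann-like cells had 133. Fibroblast-like cells had 156 and 139 CPM, endothelial-like cells 125 and 98.4, chondrocyte-like cells 48.3 and 47.5, and muscle-like cells 24.3 and 15.3. The muscle-like intervals overlapped the erythroid-like ones in both libraries, the muscle-rich against 15.9 (8.19 to 27.7) and the muscle-poor (9.79 to 22.7) against 3.56 (0.735 to 10.4), so Nid1 in these cells is not read as expression. Nid2 had no clear leader: Schwann-like (86.0 and 68.6 CPM), chondrocyte-like (80.8 and 79.6), endothelial-like (71.1 and 60.1), fibroblast-like (69.0 and 68.1) and pericyte-like cells (63.1 and 66.5) lay close together. Chondrocyte-like cells were the type whose ratio of Nid1 to Nid2 UMIs lay below 1 with its interval in both libraries, at 0.60 in each, whereas pericyte-like cells had 3.83 and 3.61. Fibroblast-like cells were not uniform either. Those with at least 2 UMIs of Osr1 and Meox2 together, marks of muscle connective tissue, had 111 CPM of Nid2 in the muscle-rich library (93.9 to 129.5) and 115 in the muscle-poor (92.2 to 142). Those with at least 2 UMIs of Twist2 and Crabp1 together, marks of dermis, had 35.9 (31.7 to 40.5) and 39.99 (34.8 to 45.8), a difference of 3.08-fold and 2.88-fold. Lamb1 was also higher in the muscle connective cells, by 2.30-fold and 1.78-fold, and Col4a1 by 1.39-fold and 1.73-fold.

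Among the 11 types, Hspg2, the perlecan gene, was highest in chondrocyte-like cells, which have no basement membrane sheet. Chondrocyte-like cells had 155 CPM (151 to 160) and 129 (125 to 133), and perlecan is a known component of cartilage matrix. Schwann-like (122 and 81.4 CPM) and endothelial-like cells (110 and 82.9) followed, with overlapping intervals, and osteoblast-like cells had 71.0 and 59.4. The endothelial-like level pools blood cells (174 and 132 CPM) with lymphatic cells (45.0 and 47.2). Taken alone, blood cells were not lower in Hspg2 than chondrocyte-like cells. Fibroblast-like (40.2 and 36.5 CPM) and muscle-like cells (20.5 and 15.9) were lower. Chondrocyte-like cells held 48.2% and 45.8% of all Hspg2 UMIs of the kept cells of the muscle-rich and muscle-poor library, and a UMI of it was seen in 74.8% and 67.6% of them.

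Numbers of cells and levels together set who supplies the transcripts inside the sort. In the muscle-rich library, muscle-like cells held 29.1% of the Col4a1 UMIs, 36.1% of Lama2 and 60.3% of Lama5. In the muscle-poor library the same type held 1.23%, 2.66% and 5.88%, and endothelial-like cells, at 2.89% and 8.75% of the kept cells, went from 12.8% to 43.9% of the Col4a1 UMIs and from 10.5% to 32.5% of the Lama4 UMIs. Col4a1 UMIs were widespread: 93.6% and 96.9% of endothelial-like and 86.8% and 79.6% of muscle-like cells had at least 1, beside 11.3% and 14.9% of erythroid-like cells, with medians of 12265.5 and 15210 UMIs in endothelial-like and 10511.5 and 11929 in erythroid-like cells. With each cell thinned to 2000 UMIs the shares were 66.0% and 64.2% in endothelial-like, 43.0% and 24.7% in muscle-like, and 3.23% and 1.49% in erythroid-like cells.

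In the muscle-like cells, most of these genes were higher before differentiation. Pax7 cells had at least 1 Pax7 UMI and at most 2 of Myog (974 and 36 cells), and Myog cells had at least 5 Myog UMIs and none of Pax7 (611 and 38). Pax7 marks progenitors, and Myog cells that have begun to differentiate. In the muscle-rich library 7 of 10 genes were at least 2-fold higher in Pax7 cells, against 11.4% of all genes: Col4a1 (467 against 134 CPM, 3.48-fold), Col4a2 (250.4 against 65.0, 3.85-fold), Lama4 (42.4 against 11.6, 3.64-fold), Lamc1 (54.9 against 14.6, 3.75-fold), Lamb1 (107.5 against 40.7, 2.64-fold), Nid2 (25.4 against 9.08, 2.79-fold) and Nid1 (33.5 against 13.2, 2.54-fold). The Myog cell levels of Lama4, Lamc1, Nid1, Nid2 and Hspg2 reached the erythroid-like ones, so 3 of the 7, Col4a1, Col4a2 and Lamb1, were clear of that background in both kinds of cell. The fibre laminin Lama2 was closer, at 37.2 against 21.0 CPM (1.77-fold), as were Hspg2 (1.42-fold) and Lama5 at 18.5 against 14.5 CPM (1.27-fold, log2 interval 0.05 to 0.66). In the muscle-poor library 2 genes had the UMIs to be counted, and both were higher in Pax7 cells, Col4a1 with 355 against 73.8 CPM (4.82-fold) and Col4a2 with 184 against 53.7 (3.43-fold), against 7.33% of all genes. Among the alpha chains of the muscle-rich library, Lama4 took 43.2% in Pax7 cells (40.7 to 45.7) and 24.6% in Myog cells (20.6 to 29.0), and Lama5 18.9% (16.9 to 20.9) and 30.8% (26.4 to 35.4). The 32 and 24 UMIs of the muscle-poor library gave 40.6% and 20.8% for Lama4, intervals that overlap.

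Between the libraries, muscle-like cells showed lower basement membrane levels in the muscle-poor library. The folds were modest, from 1.51 to 1.84, and the limit was 1.5. By this limit, 8 of 10 genes were lower there and none was higher. Over the 9959 genes with at least 100 UMIs in these cells, 14.9% were lower and 380 were higher. The 100 UMIs were summed over both libraries, and these cells held 31439229 UMIs in the muscle-rich and 1570312 in the muscle-poor library. A gene could thus pass through the muscle-rich library alone, in the Pax7 and Myog cells too. Of the 8, only Col4a1 (337) and Col4a2 (180) had at least 100 UMIs in the muscle-poor library. Of the 8, 6 were clear of the erythroid-like level in both libraries. Nid1 reached it in both libraries and Lama4 in the muscle-poor, so these levels are not read as expression, and Nid1 turned to a log2 ratio of 0.48 once the erythroid-like level was subtracted. The median log2 ratio, muscle-poor over muscle-rich, was -0.64 over the 10 genes and -0.08 over all. It was -0.61 for Col4a1 (-0.77 to -0.46), -0.59 for Col4a2 (-0.81 to -0.38), -0.88 for Lamb1 (-1.25 to -0.53), and between -0.79 and -0.59 for Lama2, Lama4, Lama5, Lamc1 and Nid1, with intervals that end between -0.20 and -0.05. Hspg2 was at -0.37 (-1.01 to 0.21), and Nid2 was the exception with 0.35 (-0.17 to 0.82), at 19.0 and 24.2 CPM. Both also reached the erythroid-like level in the muscle-poor library. The muscle-poor library is the one labelled SRSF2f/w, and Srsf2 itself was lower in its muscle-like cells (181 against 256 CPM). This was not particular to muscle-like cells, since Srsf2 was lower there in each gated type (log2 -0.50 in muscle-like, -0.52 over all kept cells). All muscle-poor values rest on 93 cells, 15 UMIs for Lama5 and 24 to 69 for the genes other than the collagens. Pax7 cells were 974 of 1974 muscle-like cells in the muscle-rich and 36 of 93 in the muscle-poor library. The part of this mix in the difference was not tested. Within the Pax7 cells 5 of 10 genes were 1.5-fold lower, against 16.4% of all genes. Col4a1 at -0.39 (-0.60 to -0.20), Col4a2 at -0.44 (-0.73 to -0.17) and Lamb1 at -0.57 (-1.04 to -0.14) were not among the 5. Of the 5, Lama5 rests on 6 UMIs in the muscle-poor library (-2.36 to 0.23), and 1, Lamc1, was clear of the erythroid-like level in both libraries. Within the Myog cells 4 of 9 were lower, against 15.0%, including Nid1 from 2 UMIs and Hspg2 from 6 (-2.12 to 0.50), with Col4a1 at -0.86 (-1.33 to -0.43) and Lamb1 at -1.28 (-2.35 to -0.38). Of these 4, Col4a1 was the 1 clear of the erythroid-like level in both libraries.

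Transcripts of other cells moved with this difference. The fibroblast marker genes Pdgfra, Dcn and Lum, all 3 detected in each library, summed to 97.6 CPM in the muscle-like cells of the muscle-rich and 28.0 in those of the muscle-poor library, and the chief collagen genes of connective tissue went along (Col3a1 397 and 125 CPM, Col1a1 231 and 54.1). The 4 osteoblast marker genes summed to 47.9 and 14.0 CPM, with 4 and 3 detected. Among muscle-like cells with no UMI of the fibroblast markers (1280 and 75 cells), a subset taken after the data were seen, 6 of 10 genes were 1.5-fold lower in the muscle-poor library, against 13.1% of all genes. There Col4a1 was at 317 against 199 CPM, log2 -0.67 (-0.86 to -0.49), Col4a2 at -0.61 (-0.87 to -0.36) and Lamb1 at 77.2 against 38.0 CPM, -1.02 (-1.48 to -0.60). Of the 6, Lama5 at -0.67 (-1.59 to 0.13) and Nid1 at -0.65 (-1.53 to 0.12) had intervals that reach 0. They rest on 13 and 14 UMIs in the muscle-poor library, and Nid1 in muscle-like cells is not read as expression. Lama2 at -0.53 (-1.16 to 0.04) and Lama4 at -0.33 (-1.02 to 0.29) no longer passed 1.5-fold. A list of 13 genes of the dissociation and heat stress response summed to 2089 and 2833 CPM in the muscle-like cells, and differentiation genes were higher in the muscle-poor library (Mylpf 221 and 704 CPM, Des 133 and 213). The part of stress and of cell state in the difference was not tested beyond the split into Pax7 and Myog cells.

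**Figure D4:**
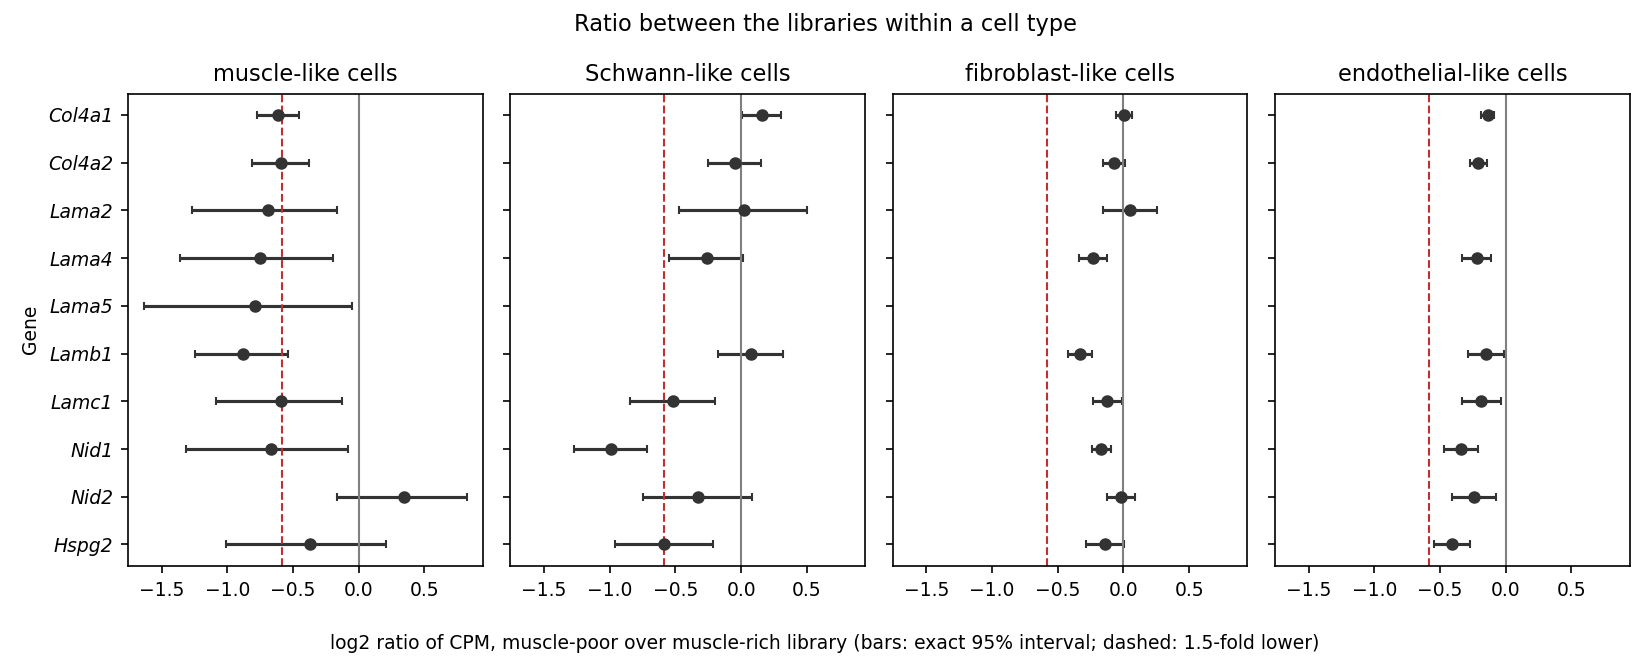
log2 ratio of CPM between the libraries (muscle-poor over muscle-rich, x axis) with exact 95% intervals, for each gene with at least 100 UMIs in muscle-like, Schwann-like, fibroblast-like and endothelial-like cells. The dashed line marks 1.5-fold lower, which 8 genes reach in muscle-like cells, Nid1 alone in Schwann-like cells (-0.99), and none in the other panels.

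None of 8 genes in endothelial-like, of 9 in fibroblast-like and of 9 in chondrocyte-like cells was 1.5-fold lower in the muscle-poor library, against 3.53%, 3.96% and 2.61% of all genes. At shares this low, 0 of 8 or 9 genes is near the share over all genes. In fibroblast-like cells with at least 2 UMIs of Tnmd and Scx, marks of tendon (109 and 76 cells), 2 of 6 were lower, against 3.53%. These were Col4a2 at -0.61 (-1.05 to -0.19) and Lama4 at -0.63 (-1.20 to -0.08). In those with Dpt and Clec3b, marks of fascia (128 and 30 cells), 1 of 7 was higher, Col4a2 at 0.79 (0.36 to 1.21), against 93 of 2546 genes. Dermal and muscle connective cells had no gene past the limit. Ratios in endothelial-like cells were small, with a median log2 ratio of -0.22 over the 10 genes beside -0.04 over all genes. All 10 lay below 0, and 9 had intervals below 0. Among genes with at least 100 UMIs the largest were those of Hspg2 (-0.41, -0.55 to -0.27) and Nid1 (-0.34, -0.47 to -0.21). Lymphatic cells were 169 of 362 endothelial-like cells in the muscle-rich and 507 of 905 in the muscle-poor library. Within blood and lymphatic cells the medians were -0.22 and -0.14. Hspg2 was at -0.39 (-0.56 to -0.23) in blood and at 0.07 (-0.23 to 0.37) in lymphatic cells. The part of this mix in the pooled ratios was not tested. None of 8 genes in pericyte-like cells, of 4 in osteoblast-like and of 4 in epidermal-like cells was lower by that much either, against 5.98%, 6.11% and 5.73%. Cells with levels near background behaved differently. In neuron-like cells 3 of 8 genes were lower, against 2.86%: Lama4 at 21.0 and 9.33 CPM, Nid2 at 17.3 and 9.21 and Hspg2 at 16.5 and 8.30. In immune-like cells all 3 genes with the UMIs were lower, against 16.5%: Col4a1 at 19.2 and 10.9 CPM, Lamc1 at 21.7 and 13.0 and Lamb1 at 25.6 and 6.06. The stress genes also differed there, 11 of 13 being lower, and muscle marker genes in fibroblast-like cells were at 21.0 CPM in the muscle-rich and 1.57 in the muscle-poor library, so transcripts of other cells differed between the libraries too. Their part in these values was not tested. In Schwann-like cells 1 of 9 genes was lower, against 4.53%: Nid1 was at 263 CPM in the muscle-rich and 133 in the muscle-poor library, log2 -0.99 (-1.27 to -0.71), and Hspg2 at -0.58 (-0.96 to -0.22) lay just inside the limit. Fibroblast marker genes in these cells were at 410 and 286 CPM. In Schwann-like cells without them (86 and 66 cells) Nid1 was at -0.96 (-1.37 to -0.56) and Hspg2 at -0.74 (-1.31 to -0.20). Osteoblast marker genes stood at 1751 and 26.5 CPM in Schwann-like cells, and 98.7% of the 2836 UMIs of Ibsp behind this lay in 2 cells. Over all kept cells, 2 of 10 genes were lower by 1.5-fold, against 6.02% of all genes. Lama5 was at 5.67 and 2.07 CPM, log2 -1.45 (-1.66 to -1.25), of which the change in the mix of types alone, each type held at its pooled level, would give -0.97. Lama2 was at 17.7 and 9.16 CPM, log2 -0.95 (-1.06 to -0.85), with -0.66 from the mix. Lamb1 was at -0.46 (-0.51 to -0.42), with -0.19 from the mix, and the other 7 genes lay between -0.16 and 0.03. Cells passing several limits or none counted as 1 type each in the mix, so changes of mix inside them are not covered. Those passing none were 32.5% and 33.4% of the kept cells.

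Partners of the 10 genes were read from lists of related genes. Their levels are given without the erythroid-like limit, so low CPM values among them may be free RNA. Of 14 other basement membrane components, 12 had the UMIs to be set beside fibroblast-like cells, and 3 were at least 2-fold higher in endothelial-like cells in both libraries: Tinagl1 (69.3 against 2.07 CPM and 71.1 against 4.95), Col15a1 (192 against 11.2 and 114 against 9.30) and Col18a1 (380 against 33.4 and 351 against 34.2), the last the source of endostatin. As given above, 8.44% and 10.2% of all genes were that much higher. Another 5 of the 12, Egflam, Smoc1, Smoc2, Fras1 and Frem1, were at least 2-fold lower there in both libraries. Over all genes, 2012 of 11006 in the muscle-rich and 1822 of 10895 in the muscle-poor library were that much lower. Of 11 genes that fold, hydroxylate or cross-link collagens, collagen IV among them, none was 2-fold higher in endothelial-like than in fibroblast-like cells. In the muscle-rich library 6 and in the muscle-poor 7 of the 11 were at least 2-fold lower. In muscle-like cells of the muscle-rich library Col18a1 was at 120.0 CPM in Pax7 and 8.31 in Myog cells (14.4-fold), one of 6 components of 10 at least 2-fold higher in Pax7 cells, against 11.4% of all genes. Another 2 of the 10 were at least 2-fold lower (Npnt at 7.01 against 21.5 CPM and Fras1 at 3.28 against 13.7), against 557 of 9417 of all genes. Between the libraries, 4 of 11 components were 1.5-fold lower in the muscle-like cells of the muscle-poor library, against 14.9% of all genes, Col18a1 the furthest at 72.4 and 23.6 CPM (log2 -1.62, -2.13 to -1.15). Of the 11 genes that act on collagens, 4 were lower in the muscle-like cells of the muscle-poor library, against the same 14.9%. Among the 4, Loxl2, a lysyl oxidase, was at 53.1 and 27.4 CPM (-0.95, -1.43 to -0.52). Pxdn, whose peroxidase forms the sulfilimine cross-link of collagen IV, was at 38.7 and 21.7 (-0.84, -1.37 to -0.35). Loxl2 was also 3.85-fold higher in Pax7 than in Myog cells of the muscle-rich library. Of 8 receptors for laminin and collagen IV with the UMIs, 4 were lower, again against 14.9%, among them Itga7, the alpha subunit of the muscle laminin receptor, at 16.6 and 4.46 CPM (-1.90, -3.22 to -0.85) and Itga6 at 38.6 and 24.8 (-0.64, -1.14 to -0.18). The epidermal laminin receptors Itgb4 and Itga3 and the Lama5 receptor Bcam were highest in epidermal-like cells in both libraries, as Lama5 was, and Itga1, a collagen receptor, in pericyte-like cells (232 and 196 CPM). Col4a3 did not pass 1.02 CPM in any type.

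Across the 11 cell types, several of the 10 genes had another of them as a near neighbour. Likeness was Pearson's r of log2(CPM + 1) over types, averaged over the libraries, among 9467 genes. The types share library and depth, and r is given as a description. Col4a1 and Col4a2 were each other's nearest gene of all (0.99). Lamb1 was nearest to Lamc1 (0.94), and Lamc1 had Tsc22d2 (0.94) just ahead of Lamb1. Lama5 was nearest to its receptor gene Bcam (0.92) and had an r of at most 0.39 with any other of the 10 in either library, Lama4 to Slc9a3r2 (0.94), Rab13 (0.93) and Pxdn (0.93), and Lama2 to Olfml2b (0.91). Nid1 was nearest to Fbln5 (0.94), an elastic fibre gene, Nid2 to the imprinted gene Mest (0.92), and Hspg2 to Wwtr1 (0.93).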

How the data were processed

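The matrix holds counts of UMIs per gene and cell barcode. Per the study's methods and the matrix header, the authors made these deposited counts with Cell Ranger 5.0.0. Per the methods, both libraries were aggregated after down-sampling. The methods name neither the genome build nor whether introns were counted. The submitters' processing notes instead list Cell Ranger 3.1.0, STAR and Seurat 3.1.1. The authors' quality summaries gave the cell numbers that tied each barcode suffix to its library. Barcodes within 2 SD of the mean log10 UMIs and genes of their library and with at most 10% mitochondrial UMIs were kept, 12523 of 15268 and 10345 of 12498. Cells were typed by limits on summed marker UMIs, without clustering or a doublet caller, and cells passing several limits were left out.

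Levels are UMIs per 1000000 (CPM) with exact 95% Poisson intervals, shares have Clopper-Pearson intervals, and ratios have intervals from the exact binomial split. PCR and free RNA are not covered by them. Each group has 1 library, so no test was run. Genes with at least 100 UMIs over both groups were counted as at least 2-fold apart between cell types or 1.5-fold between libraries. Named genes are the 10 members and, from each list, those past these limits or highest in a type. The members and lists were chosen with earlier results of these data known. The mix estimate held each type at its level over both libraries, with cells passing several limits or none taken as 1 type each. Python 3.11.15, NumPy 2.4.6, SciPy 1.17.1, pandas 2.3.3 and matplotlib 3.10.9 were used, and the interval code was tested on simulated data. At the depth of the muscle-like sums, 8.73% of simulated unchanged genes passed the 1.5-fold limit through counting error. The share was 1.45% at the depth of Schwann-like and 0.25% at that of chondrocyte-like sums. Gene positions are from GENCODE on GRCm38, with 32158 of 32285 identifiers matched. A result on 1 listed gene is not reported here.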

Additional observations from a re-analysis of the deposited data

How the results depend on the processing

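Of 522 alternative values, 92 of the main comparisons and 367 of single genes stayed within the reported value's error or count limit, 15 and 47 moved, and 1, a value past 1.5-fold, changed sign. Of 415 single-gene log2 ratios between the libraries, counting those under 1.5-fold, 28 changed sign: 10 in chondrocyte-like, 7 in Schwann-like and 5 in fibroblast-like cells, 4 over all kept cells, and 1 each in endothelial-like and muscle-like cells. The largest shift was 1.81 on the log2 scale, in chondrocyte-like cells. Between libraries, no gene was lower in muscle-like cells at a 2-fold limit (0 in place of 8), and none in Schwann-like cells (0 in place of 1). The Schwann-like count was 2 with raised marker limits, without cells that also pass the fibroblast limit, with haemoglobin, mitochondrial and ribosomal genes left out of the total, or without cells holding fibroblast marker UMIs. The endothelial-like and fibroblast-like counts were 1 with a minimum of 20 UMIs, and the chondrocyte-like count was 1 with the erythroid-like level subtracted, which also turned Nid1 in muscle-like cells to 0.48. The log2 ratio of Lama4 per Lama2 in endothelial-like over muscle-like cells (5.43 in the muscle-rich and 6.17 in the muscle-poor library) was 6.18 with cells thinned to 2000 UMIs, 6.41 with erythroid-like levels subtracted, and 6.71 and 7.13 without cells holding fibroblast marker UMIs, a subset that was added once the data had been seen. The endothelial-like Lama2 level reached the erythroid-like one in both libraries, and the muscle-like Lama4 level did so in the muscle-poor. The size of these ratios is therefore not read as expression. The Col4a1 share in endothelial-like minus erythroid-like cells was 40.1 and 42.0 percentage points with cells thinned to 1000 UMIs, in place of 62.8 and 62.7. Apart from the limits and totals named, the cause was not tested. No paired analysis was possible because each group has 1 library. The 93 muscle-like cells of the muscle-poor library limit every muscle comparison.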
